A study of Homo sapiens with 16 samples.

Results

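The effect of the poly(ADP-ribose) polymerase inhibitor PJ-34 on RNA levels was examined in HCT116, a human colon cancer cell line, on 8 of the 16 arrays of the study. The 8 arrays are all those whose title names HCT116, and they were split by whether the treatment label includes PJ-34. On 1 array with the drug PJ-34 was given alone, and on the others it was combined with TSA (labelled PJ-34/TSA), with 5-aza-dC or with both of them. The 4 arrays without it are the control, 5-aza-dC, TSA and 5-aza-dC/TSA. Cells were treated for 3 days with PJ-34 at 3 µM, 5-aza-2′-deoxycytidine (abbreviated 5-aza-dC, an inhibitor of DNA methyltransferases) at 0.5 µM and the histone deacetylase inhibitor trichostatin A (TSA) at 150 nM. The other 8 arrays hold the same conditions in RKO, a further human colon cancer line. Each condition has 1 array with the replicate number 1, and nothing in the labels says that arrays came from separate cultures, so the p-values and intervals measure only the spread between these samples, which may be technical. Without replicates, this spread is the departure of the arrays from the sum of the separate drug effects. It therefore also holds any real interaction between the drugs.

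Poly(ADP-ribose) polymerases (PARPs) transfer ADP-ribose from NAD onto proteins and nucleic acids. PARP1 and PARP2 do so at DNA breaks, where the polymer recruits repair factors and loosens chromatin, and other members act in telomere maintenance, antiviral defence and Wnt signalling. PARG and other erasers remove the modification. Inhibitors such as PJ-34 occupy the NAD site, so that the enzymes are blocked without any necessary change in their RNA. The comparison asks what 3 days of this block did to transcript levels, and how large an effect could have gone unseen.

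Because the 3 drugs were given in every combination, PJ-34 separates the 8 arrays into 4 against 4, with 5-aza-dC and TSA as further terms of a linear model (limma). The 8 arrays also form 4 pairs that differ in PJ-34 alone and share no array. In what follows the pairs are named by what both arrays carry: no other drug, 5-aza-dC, TSA, or 5-aza-dC and TSA, and signals are always listed in that order. A log2 difference is the mean over the 4 arrays with PJ-34 minus the mean over the 4 without it, after signals under 50 were set to 50. An effect present in 1 pair alone therefore enters the mean difference divided by 4. The array reads 54675 probe sets, of which 23661 (43.3%) had a signal of at least 250 on at least 4 of the 8 arrays and were tested. They cover 11068 genes.

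Overall array measures overlapped between the arrays with and without the drug. Median signal lay between 160 and 197 with PJ-34 and between 168 and 210 without it (exact permutation test, two-sided, p = 0.343, n = 4 and 4, where the smallest possible p is 0.0286). The ratio of 3′ to 5′ GAPDH control signal, a sign of RNA integrity, was 0.869 to 0.902 with the drug and 0.834 to 0.882 without (exact permutation p = 0.143). It was higher with PJ-34 in 4 of 4 pairs, and its part in the results was not tested. Of 18 colon epithelium markers, 10 read 250 or more on all 8 arrays, among them CDH1, EPCAM and the keratins KRT8, KRT18, KRT19 and KRT20. The intestinal factors CDX1 and CDX2, and CEACAM6, GPA33 and TFF3, stayed under 250 on every array. Of 12 blood cell markers measured, PTPRC, CD3E, MS4A1 and CD14 were under 250 on all arrays, while HLA-DRA, LAPTM5 and HBB were bright enough to be tested. No endothelial marker was. Of 16 fibroblast markers, COL1A1, COL6A1, VIM, FN1 and ACTA2 read 250 or more on all 8 arrays. COL1A2, COL3A1, DCN, PDGFRA, PDGFRB and FAP stayed under 250 on every array. Summed signals ran from 200949 to 278282 for the colon markers and from 1183 to 3930 for the blood markers, and their ranges with and without PJ-34 overlapped (exact permutation p between 0.343 and 0.971 for the 4 marker lists).

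No probe set passed the test for PJ-34. The count at an adjusted p under 0.05 was 0 of 23661 in either direction (0%, limma), and the smallest adjusted p was 0.966. At an unadjusted p under 0.05 there were 740 probe sets (3.13%), and that count rested on single arrays: it was 3842 without the TSA array, 1116 without the PJ-34/TSA array and 337 without the 5-aza-dC array, with 0 called each time. Log2 differences had a median of −0.005 and an SD of 0.246 across probe sets, and 93 probe sets (0.393%) differed by 1 or more on the log2 scale. The same 8 arrays, fitted in the same model, gave calls for both other drugs. With 5-aza-dC, 186 probe sets rose (0.786%) and 17 fell (0.0718%). With TSA, 1680 rose (7.1%) and 1848 fell (7.81%). The smallest change called was 0.25 on the log2 scale for TSA and 0.47 for 5-aza-dC, and the median called size 0.65 and 1.45. The size needed for a call falls as more probe sets change, so these minima do not carry over to PJ-34. The SD of the differences was 0.445 for TSA and 0.38 for 5-aza-dC.

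**Figure D1:**
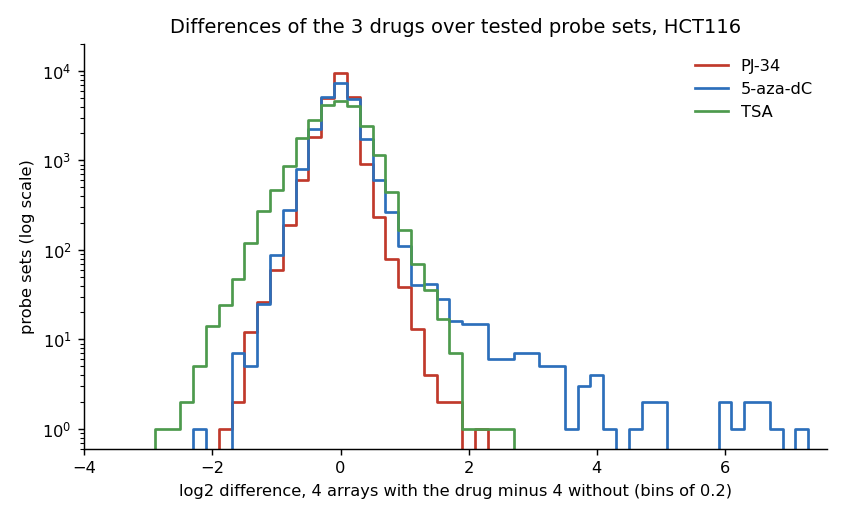
Number of tested probe sets (vertical axis, log scale) by log2 difference (horizontal axis, bins of 0.2) for each drug in HCT116 (PJ-34, TSA, 5-aza-dC), as 4 arrays against 4. Differences for PJ-34 span −1.78 to 2.24, those for TSA −2.81 to 2.54, and those for 5-aza-dC reach 7.18.

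The intervals around these differences set the size of effect that the arrays could miss. The median standard error was 0.18 and the median half-width of the 95% interval 0.39 on the log2 scale, or 1.31-fold. From the 10th to the 90th percentile of probe sets the half-width ran from 1.18-fold to 1.69-fold. A probe set was counted as having an effect of a given size excluded where both one-sided moderated tests against that bound had an adjusted p under 0.05 (an equivalence test). An effect of 4-fold or more in either direction was excluded at 23600 probe sets (99.7%), 3-fold at 23371 (98.8%), 2-fold at 21520 (91%) and 1.5-fold at 13656 (57.7%). No probe set had an effect of 1.25-fold excluded (0%). This adjusted rule is not the same as a 95% interval that lies inside the bound, which held at 20540 probe sets (86.8%) for 2-fold and at 2954 (12.5%) for 1.25-fold. A gene can thus count as having 2-fold excluded while its interval reaches slightly past 2-fold. Counted by gene, 2-fold was excluded at every tested probe set for 9594 of 11068 genes (86.7%). In the other direction, a change shared by 1000 probe sets would have had to reach 1.64-fold to be called at the median standard error, and a change of 1 probe set alone 2.97-fold.

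What could be excluded depended on the brightness of the probe set. Where the mean signal was 5000 or more, 2-fold was excluded at 3782 of 3788 probe sets (99.8%) and 1.5-fold at 97.1%. Between 500 and 1000 these shares were 95.9% and 49%. Below a mean signal of 250, 2-fold was excluded at 359 of 1153 (31.1%) and 1.5-fold at none. The 31014 probe sets that were too dim to be tested were fitted once with no filter, and there 2-fold was excluded at 33.2% and 4-fold at 96.3%. On each array 21.9% to 26.5% of all signals were under 50 and were set to 50, which shrinks differences at dim probe sets. These shares are therefore in part fixed by the floor and do not show that effects on dim transcripts were absent.

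**Figure D2:**
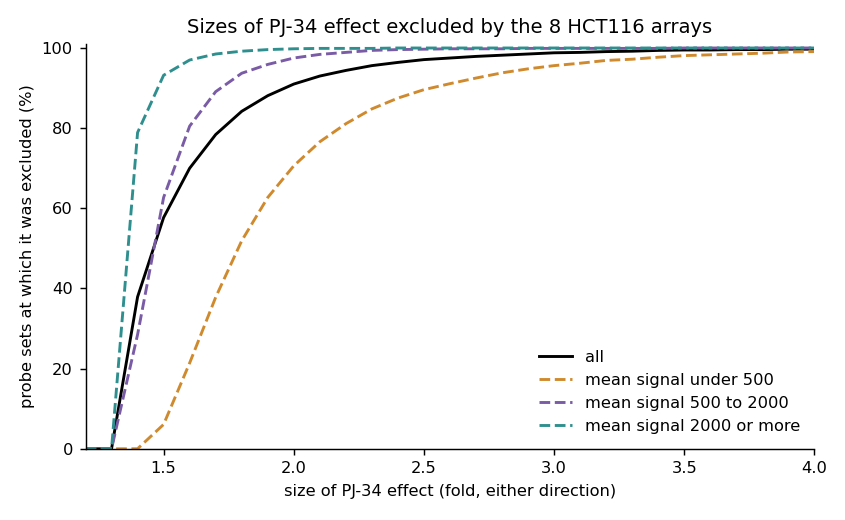
Share of tested probe sets (vertical axis, percent) at which a PJ-34 effect of the size on the horizontal axis (fold, either direction) was excluded by the equivalence test, for all 23661 probe sets (solid) and by mean signal (dashed). The solid line passes 57.7% at 1.5-fold and 91% at 2-fold, and dim probe sets lag behind bright ones.

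Transcripts of the drug's own targets were close to their level without it. PARP1, the main enzyme of the break response, read 4712, 4754, 7616 and 5854 without PJ-34 and 5709, 6184, 5868 and 6025 with it. The 2 sets of values overlapped, and the log2 difference was 0.08 (95% interval −0.21 to 0.37), which excludes 1.5-fold. PARP2, its partner in break repair, read 7504, 7414, 8112 and 6739 without and 6678, 6468, 6856 and 6508 with the drug. It was lower in all 4 pairs by 0.05 to 0.24 and the difference was −0.16 (−0.38 to 0.05), again with 1.5-fold excluded. The other PARP2 probe sets gave −0.10 and −0.04. PARP3, a mono-ADP-ribosylating enzyme of double-strand break repair, gave 0.25 (−0.11 to 0.61).

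Of the 17 genes of the PARP family, 15 were tested and none was called. Their differences ran from −0.41 to 0.25 with a median of 0.05, beside a median of 0.02 over all 11068 genes, and 9 were positive, where 55.3% of all genes were. An effect of 2-fold was excluded for 14 of the 15 and of 1.5-fold for 11. Over all 11068 genes, read in the same way from 1 probe set each, the shares were 94.3% for 2-fold and 68.7% for 1.5-fold, against which the counts of this and the following groups are to be read. The tankyrases, which act at telomeres and on axin, gave 0.10 (−0.14 to 0.33) for TNKS and −0.14 (−0.65 to 0.37) for TNKS2, whose pairs ran from −0.94 to 0.94. TIPARP, a mono-ADP-ribosyltransferase induced by the aryl hydrocarbon receptor, gave 0.10 (−0.15 to 0.35), and the antiviral factor ZC3HAV1 0.10 (−0.13 to 0.32). PARP9, PARP12 and PARP14, which belong to the interferon response, gave 0.08, 0.22 and −0.34. For PARP10, a dim mono-ADP-ribosyltransferase gene that read 42.5 to 328, the interval of −1.52 to 0.71 left a 2-fold effect within reach. The remaining members PARP4, PARP6, PARP8 and PARP16 lay between −0.19 and 0.05. PARP11 and PARP15 were too dim to be tested.

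**Figure D3:**
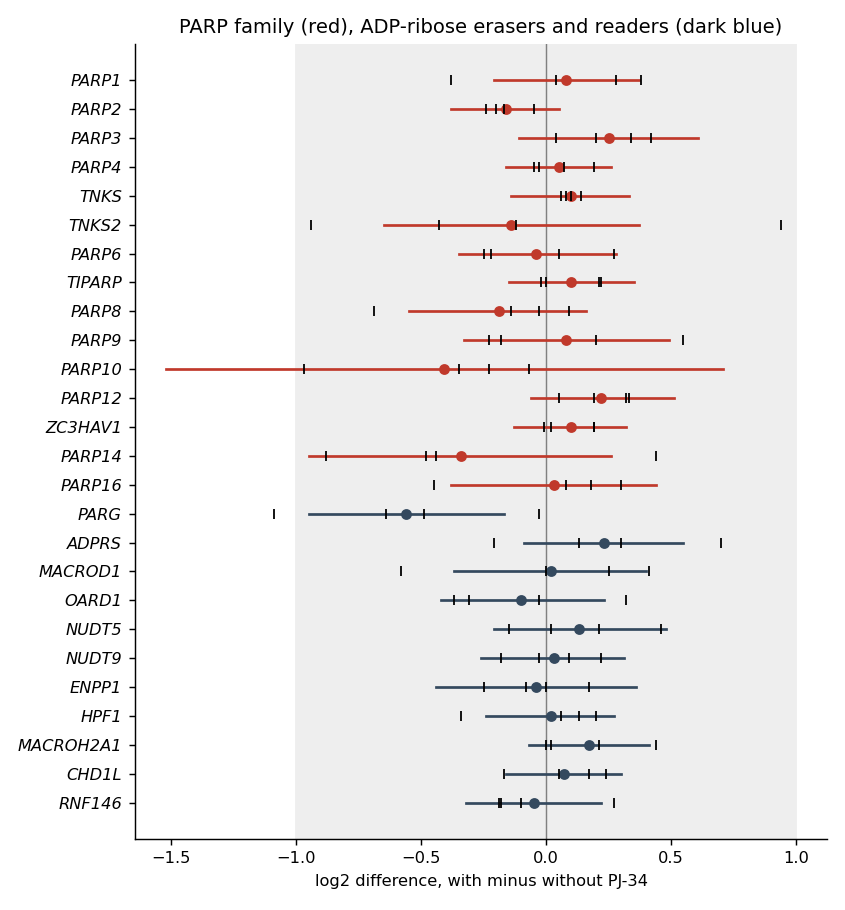
Log2 difference with minus without PJ-34 (horizontal axis; dot, mean of 4 pairs; line, 95% interval; black ticks, the 4 pairs) for tested genes of the PARP family and for ADP-ribose erasers and readers. The shaded band marks differences under 2-fold, and only the interval of PARP10 leaves it.

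Among the genes that remove or read ADP-ribose, PARG stood lowest. PARG, the main hydrolase of the polymer, read 2202, 3181, 1929 and 2538 without PJ-34 and 2163, 1491, 1242 and 1803 with it. It was lower in 4 of 4 pairs, by 0.03 to 1.09, while the ranges overlapped. The difference of −0.56 (SE 0.177, −0.95 to −0.17) did not pass the test (adjusted p = 0.966), and 2-fold was excluded but 1.5-fold was not. ADPRS, the hydrolase for serine-linked ADP-ribose, gave 0.23 (−0.09 to 0.55), and the histone MACROH2A1, whose macrodomain binds ADP-ribose, 0.17 (−0.07 to 0.41). NUDT5, which cleaves free ADP-ribose, gave 0.13 (−0.21 to 0.48). None of the 11 tested genes of this group was called, and 2-fold was excluded for all 11. In NAD metabolism 0 of 14 were called and 2-fold was excluded for all 14, with NMRK1, a nicotinamide riboside kinase, at 0.31 (−0.09 to 0.72) and the mitochondrial NMNAT3 at 0.40 (−0.11 to 0.92).

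DNA repair genes were likewise without a call. In base excision and strand break repair, the pathway in which PARP1 acts, 0 of 23 were called, 17 were positive with a median of 0.06, and 2-fold was excluded for all 23. SMUG1, a uracil glycosylase, read 1883, 1682, 1829 and 1836 without PJ-34 and 2001, 2456, 2028 and 2448 with it. All 4 arrays with the drug were above all 4 without it, a pattern shared by 131 tested probe sets (0.554%), with 151 (0.638%) in the opposite order. The SMUG1 difference was 0.30 (0.01 to 0.59). UNG, a further uracil glycosylase, gave 0.29 (−0.03 to 0.60) and the flap endonuclease FEN1 0.28 (−0.03 to 0.59). In homologous recombination and the Fanconi pathway 0 of 26 were called, 19 were negative with a median of −0.14, and 2-fold was excluded for all 26. Here the ubiquitin ligase FANCL gave −0.36 (−0.73 to 0.00), the recombination mediator RAD52 −0.46 (−0.95 to 0.02) and BARD1, the partner of BRCA1, 0.30 (0.00 to 0.61).

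**Figure D4:**
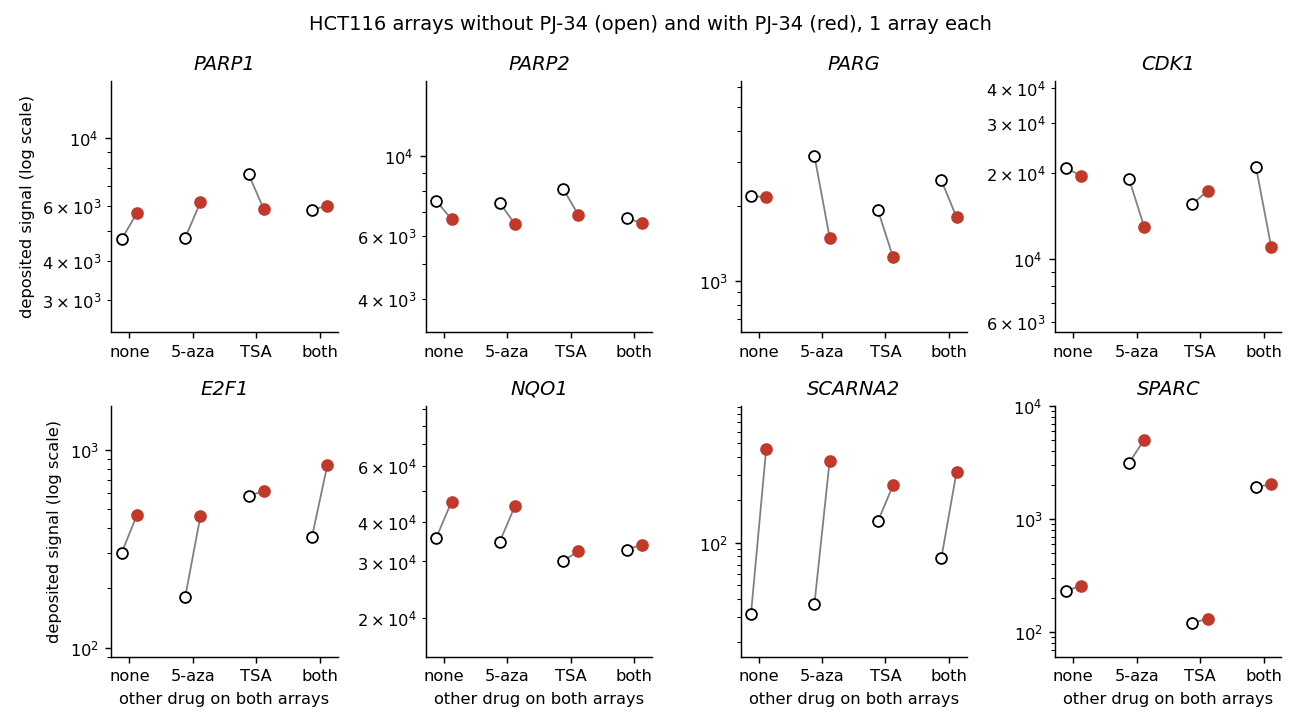
Deposited signal (vertical axes, log scale, 1 array per point) of 8 genes in HCT116 without PJ-34 (open) and with it (red), for the pairs with no other drug, 5-aza-dC (5-aza), TSA and both. Lines join the arrays of a pair. PARP1 and CDK1 change direction between pairs, SCARNA2 is higher with PJ-34 in all 4, and SPARC follows 5-aza-dC rather than PJ-34.

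In DNA replication genes the medians of the pairs differed by background, while in mitosis genes they stayed closer to those of all genes. Of 40 DNA replication genes none was called, 33 were positive and the median was 0.09. The median was 0.00 in the pair with no other drug, 0.46 on 5-aza-dC, −0.14 on TSA and 0.15 on 5-aza-dC and TSA, beside 0.01, 0.05, −0.02 and 0.05 over all genes. E2F1, a transcription factor of the G1/S transition, read 302, 180, 585 and 364 without and 468, 461, 616 and 832 with PJ-34. It was higher in 4 of 4 pairs with a difference of 0.81 (0.24 to 1.38), but its second tested probe set gave 0.02 (−0.48 to 0.52). The licensing factor CDT1 gave 0.46 (−0.07 to 0.98), with pairs at 1.45, −0.34, −0.17 and 0.88.

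Of 35 mitosis genes 0 were called and 2-fold was excluded for 34. Their medians by pair were 0.00, 0.08, −0.13 and −0.10. CDK1, the kinase that drives entry into mitosis, read 20881, 19091, 15583 and 21106 without the drug and 19634, 12933, 17368 and 11046 with it. Its pairs were −0.09 and 0.16 without 5-aza-dC and −0.56 and −0.93 with it, for a mean difference of −0.36 (−0.69 to −0.02). The kinetochore motor CENPE gave −0.75 (−1.50 to 0.01), again with its lower values, −1.83 and −1.29, in the pairs with 5-aza-dC. When the dependence of the PJ-34 difference on 5-aza-dC was fitted, 0 probe sets passed (0%, smallest adjusted p 0.218) and 2637 (11.1%) had an unadjusted p under 0.05. For CDK1 this interaction was −0.78 (SE 0.2, adjusted p = 0.259). The mitosis list as a whole did not share its direction and lay near all genes. Its median was 0.09 with 21 of 35 positive, beside 0.06 and 6117 of 11068 over all genes. For the replication list the median was 0.36 and 34 of 40 were positive. For the dependence on TSA 0 passed (0%), and 458 (1.94%) had an unadjusted p under 0.05. The sizes excluded above are those of the effect averaged over the 4 backgrounds.

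Among 26 p53 targets none was called, 18 were positive with a median of 0.07, and 2-fold was excluded for all 26. CDKN1A, the cell cycle inhibitor p21, read 8224, 11767, 19191 and 19906 without PJ-34 and 9239, 14498, 22142 and 22878 with it. The 4 pairs agreed at 0.17, 0.30, 0.21 and 0.20, but the ranges overlapped widely since TSA raised the gene by 0.98 (adjusted p = 0.0012), and the PJ-34 difference was 0.22 (−0.03 to 0.47). GDF15, a stress-induced cytokine, gave 0.22 (−0.04 to 0.48) and TP53I3, a quinone oxidoreductase, 0.30 (−0.07 to 0.67). In the integrated stress response 0 of 26 were called and 2-fold was excluded for all 26 by the equivalence test, although the DDIT3 interval reached just past it. DDIT3, its proapoptotic transcription factor, was lower in 4 of 4 pairs by 0.39 to 0.75 with a difference of −0.51 (−1.01 to −0.01), and fell by 1.66 with TSA (adjusted p = 0.00209).

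Targets of the aryl hydrocarbon receptor, a ligand-activated factor that induces enzymes of xenobiotic metabolism, had a higher median than the other 24 lists with tested genes, which range down to −0.14. Of 7 tested genes none was called, 6 were positive and the median was 0.20. NQO1, a quinone reductase, read 35642, 34647, 30139 and 32636 without PJ-34 and 46221, 44845, 32325 and 33905 with it. It was higher in 4 of 4 pairs with a difference of 0.23 (0.03 to 0.42), and its other tested probe sets gave 0.43 and 0.18. The receptor gene AHR gave 0.28 (−0.01 to 0.57), its 4 arrays with the drug all above those without, and the repressor AHRR 0.24 (−0.11 to 0.60).

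CYP1A1, the cytochrome P450 gene most used as a readout of this receptor, was too dim to be tested and is described after its values were seen. It read 27.8, 61.4, 47.5 and 21.2 without PJ-34 and 138, 257, 263 and 405 with it. The ranges did not overlap, and the pairs differed by 1.47, 2.06, 2.40 and 3.02 on the log2 scale with the floor of 50 in place. Where a signal of 100 on 4 arrays sufficed, it was fitted with a difference of 2.24 (1.24 to 3.23) and an adjusted p of 0.982. CYP1A1 met that filter only through its 4 arrays with PJ-34, so the size is a description, and 236 probe sets (0.666%) of that fit had all arrays with PJ-34 above those without. With no filter the adjusted p was 0.877, and 30 of 54675 probe sets had a smaller p. UGT1A6, a glucuronosyltransferase gene of the same list, read 18.7, 25.8, 49.4 and 87.4 without and 84.4, 161, 110 and 155 with the drug, higher in 4 of 4 pairs with overlapping ranges. The other untested members ALDH3A1 and LRAT gave −0.09 (−1.82 to 1.63) and −0.22 (−1.38 to 0.94) with no filter. The related genes CYP1A2 and CYP1B1 gave 0.10 (−0.54 to 0.74) and 0.20 (−0.45 to 0.85). In RKO cells CYP1A1 read 17.9, 61.8, 25.9 and 7.81 without PJ-34 and 137, 18.3, 8.55 and 14.0 with it, so that 1 array was above 100. That array is labelled PJ-34 and goes against its label at 5-aza-dC genes, as described with the RKO values.

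Metallothioneins, which bind zinc and copper, were positive for all 6 tested genes, with a median of 0.15 and no call. MT1G gave 0.44 (0.04 to 0.84) and was higher in 4 of 4 pairs, as were MT2A at 0.16, MT1F at 0.18 and MT1E at 0.14. These genes are close paralogs and their probe sets may share signal. Over all genes, 684 (6.18%) were higher and 429 (3.88%) lower in every pair.

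The machinery that the other drugs act on was also near its level without PJ-34. DNMT1, the maintenance DNA methyltransferase, gave 0.12 (−0.08 to 0.33) and HDAC1 0.10 (−0.15 to 0.34), both with 1.5-fold excluded. Of 16 genes of DNA methylation and 14 histone deacetylases and sirtuins none was called, and 2-fold was left in reach for HDAC9 alone at −0.62 (−1.38 to 0.15). Of 8 cancer-testis antigens, which are silenced by methylation in most tissues, 0 were called for PJ-34 and 4 for 5-aza-dC. The PJ-34 differences of MAGEA6 and MAGEB2 were 0.07 (−0.22 to 0.37) and 0.07 (−0.24 to 0.38), while SSX1 gave −0.61 (−1.33 to 0.12). An effect of 2-fold was excluded for 5 of the 8 and stayed possible for XAGE2, SSX1 and TKTL1. Medians by pair were 0.13, 0.13, 0.21 and −0.78.

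No gene passed in the signalling and metabolic lists either. Among 14 Wnt targets the secreted inhibitor DKK1 gave −0.24 (−0.49 to 0.01) and cyclin D1 (CCND1) 0.15 (−0.07 to 0.37), and 2-fold stayed possible for NKD1, SP5, NOTUM and DKK4. Among 20 early genes of ERK signalling the median was 0.07, with the phosphatase DUSP4 at 0.27 (−0.03 to 0.58) and the pathway inhibitor SPRY2 at −0.37 (−0.73 to −0.02). The 12 NF-kB targets had a median of 0.01, with the subunit NFKB2 at −0.36 (−0.82 to 0.10). An effect of 2-fold was excluded for 10 of them and stayed possible for CXCL2 and ICAM1. The 26 interferon-stimulated genes had a median of −0.02, with the RNA sensor IFIH1 at −0.35 (−0.76 to 0.05). Here 2-fold was excluded for 24 and stayed possible for IFIT2 and TRIM22. The 7 retinoic acid targets had a median of −0.08, and the transglutaminase TGM2 gave 0.50 (0.10 to 0.90). Heat shock genes (12 tested) and cholesterol synthesis genes (18 tested) had medians of 0.05 and 0.08, and 2-fold was excluded for all of them.

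The genes with the highest and lowest moderated t among those of 1 direction in all 4 pairs are given as a description, since none passed. Each was read from its brightest tested probe set, and a further probe set is described for SAMM50 alone. SAMM50, which inserts proteins into the outer mitochondrial membrane, read 3749, 4425, 5876 and 5216 without PJ-34 and 6536, 7034, 6675 and 7834 with it. Its arrays with the drug were all above those without, and the difference was 0.56 (0.30 to 0.82), or 1.47-fold, though its second tested probe set gave 0.21 (−0.12 to 0.54). The small Cajal body RNA SCARNA2 read 31.5, 37.0, 141 and 77.4 without and 458, 375, 253 and 313 with PJ-34, a difference of 2.24 (1.11 to 3.37). It passed the filter only through its arrays with the drug, and signals under the floor of 50 leave the size inexact. TRAPPC14, a vesicle transport gene, gave 1.33 (0.64 to 2.02) and ERN2, an endoplasmic reticulum stress sensor of epithelia, 1.2 (0.48 to 1.93), both without overlap. DPH2, a diphthamide synthesis gene, gave 0.63, the hyaluronan synthase HAS3 0.52, CDK5 0.50, the damaged-DNA binding protein DDB1 0.37 (0.16 to 0.58), the integrin ITGB4 0.34 and C2orf81 1.43.

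On the lower side, GTSE1, a regulator of p53 and of microtubules, read 3054, 2327, 2924 and 2432 without PJ-34 and 1967, 1730, 2105 and 1874 with it. The ranges did not overlap and the difference was −0.48 (−0.74 to −0.22), at 1 of the 4 tested probe sets of this gene. The probe set annotated to MIR10A, which does not measure the mature microRNA, gave −1.56 (−2.53 to −0.60) and SUN3 −1.07 (−1.73 to −0.42), both without overlap. The MIR10A probe set passed the filter only through its arrays without PJ-34. The histone gene H3C8 read 329, 515, 202 and 378 without and 14.6, 109, 41.6 and 340 with PJ-34, with a difference of −1.78 (−2.89 to −0.67) and overlapping ranges. It shares much sequence with other H3 genes. The chromatin protein PHF6 gave −0.41, the kinase MAP3K12 −0.68, the acetyl-CoA carboxylase ACACB −0.75, VHRT −0.52 and the translesion polymerase REV3L −0.49. An effect of 2-fold was excluded for 10 of these 20 genes, among them SAMM50, DDB1 and GTSE1, and not for SCARNA2, TRAPPC14, MIR10A or H3C8. Other large differences that were uneven between pairs were the transcription factor FOXO4 at 1.66 (0.54 to 2.78), the apolipoprotein APOC1 at 1.30 (−0.04 to 2.64), the Hedgehog effector GLI1 at −1.37 (−2.91 to 0.17), the Ras exchange factor RASGRF1 at −1.38 and the calpain CAPN12 at −1.38.

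**Figure D5:**
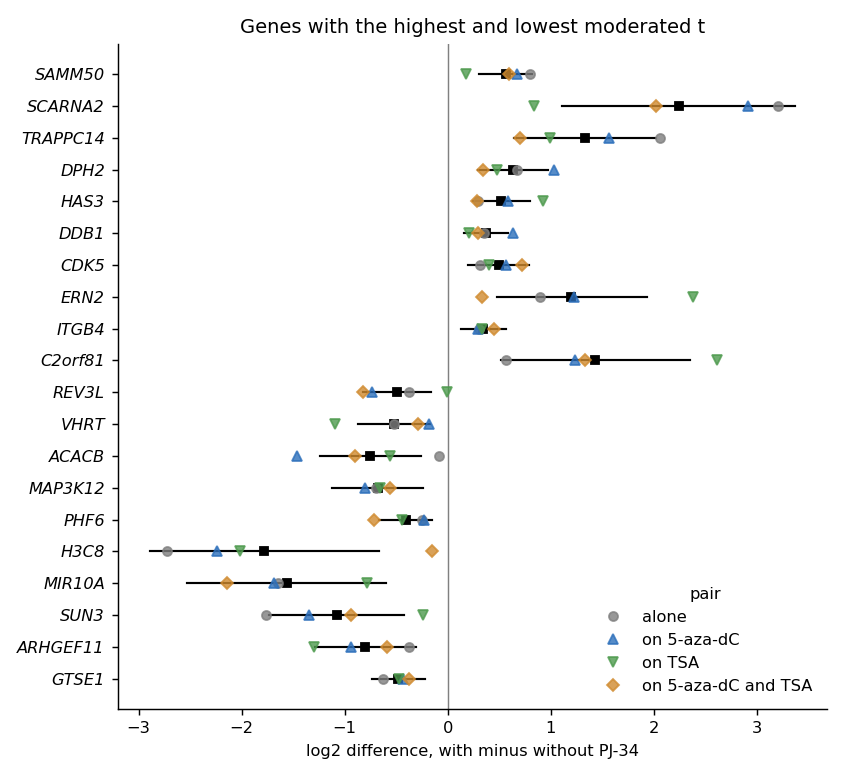
Log2 difference with minus without PJ-34 (horizontal axis) for the 10 genes with the highest and the 10 with the lowest moderated t among those with the same direction in all 4 pairs. Coloured symbols are the 4 pairs, black squares their mean and black lines the 95% interval. None passed the adjusted test, and pairs of 1 gene can lie far apart, from −2.72 to −0.15 for H3C8.

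Taken by pair, with 1 array against 1, larger differences were common and were seldom shared. In the pair with no other drug 310 probe sets were 2-fold or more higher with PJ-34 (1.31%) and 423 lower (1.79%). On 5-aza-dC these counts were 358 (1.51%) and 1516 (6.41%), on TSA 635 (2.68%) and 498 (2.1%), and on 5-aza-dC and TSA 453 (1.91%) and 719 (3.04%). These counts cover the 23661 tested probe sets. None of them was 2-fold higher in all 4 pairs and none 2-fold lower. In 3 or more pairs, 12 were 2-fold higher and 24 lower. Untested probe sets are left out, among them that of CYP1A1, which was more than 2-fold higher in all 4 pairs at dim signals. In any direction and size, 1269 probe sets (5.36%) were higher and 1244 (5.26%) lower in all 4 pairs. Across probe sets, which are not independent replicates, the differences of the pair with no other drug correlated with those of the other pairs at r = 0.08, −0.04 and 0.06. The pairs that share 5-aza-dC correlated at 0.26, and the TSA pair correlated at −0.21 with each of them. Of the 310 probe sets 2-fold higher with PJ-34 alone, 248 were 2-fold higher in no other pair.

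Switches between a low and a high signal were likewise seldom shared by pairs. From a signal under 50 without PJ-34 to at least 250 with it, 146 of all 54675 probe sets turned on in the pair with no other drug, and 115 turned off by the same limits. On 5-aza-dC 106 turned on and 338 off, on TSA 83 and 250, and on 5-aza-dC and TSA 125 and 73. Of 454 probe sets that turned on in some pair, 6 did so in at least 2 pairs and none in 3. The corresponding 4 pairs for 5-aza-dC gave 763 probe sets, of which 80 turned on in at least 2 pairs, 20 in at least 3 and 2 in all 4. For TSA there were 465, of which 17 turned on in at least 2 and none in 3. In the other direction, 760 probe sets turned off with PJ-34 in some pair, 15 of them in at least 2 pairs and 1 in 3. The named genes among the 6 that turned on with PJ-34 in at least 2 pairs were CYP1A1, SCARNA2, the axon guidance gene NTN1, APOC1 and TMEM263. They were picked by these values.

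Most genes that the study itself names were chosen by it on arrays of this series, so they are no independent evidence. It names CDX2, LOX, UCHL1, CDH1 and a gene printed as SHRP1 (read here as SFRP1) for RKO cells. For RKO it also names GAGE5, reported as raised by PJ-34 and by 5-aza-dC, for which no value is given here. CDKN2A it cites from earlier work. The values given here are from HCT116, so for these genes they do not bear on what the study reports. Of the 10 study-named genes on the array, 5 were tested and none was called. PDGFD, a growth factor gene, read 4.57, 194, 182 and 53 without PJ-34 and 142, 53.8, 74.7 and 94.9 with it at the brighter of its probe sets. Its direction differed between pairs (1.51, −1.85, −1.28 and 0.84 after the floor), and its second probe set read 134 on the control and 25.6 with PJ-34. RANBP9, a scaffold protein, gave −0.08 (−0.31 to 0.16). SOCS3, an inhibitor of cytokine signalling, gave −0.10 (−0.51 to 0.32) at its tested probe set. Of its 3 dimmer, untested probe sets, 1 read 36.2 on the control and 272 with PJ-34, with pairs at 2.44, 0.58, 1.17 and 0.00. Another was higher in 4 of 4 pairs (0.53, 0.14, 0.75 and 0.66), and the last differed in direction between pairs (1.41, 2.51, −2.18 and 0.20). E-cadherin (CDH1) gave −0.10 (−0.36 to 0.15) and CDKN2A, which encodes p16, 0.12 (−0.13 to 0.38). UCHL1, a ubiquitin hydrolase that rose by 4.08 with 5-aza-dC (adjusted p = 0.000596), gave −0.86 (−1.81 to 0.09) for PJ-34. CDX2, LOX, SFRP1 and SFRP4 were too dim to be tested.

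Genes that answered to the other drugs showed how PJ-34 compared within 1 transcript. SPARC, a matrix glycoprotein, read 231, 3145, 121 and 1909 without PJ-34 and 257, 5035, 131 and 2043 with it, so that 5-aza-dC raised it by 4.0 (adjusted p = 1.92e-06) and PJ-34 gave 0.26 (−0.13 to 0.65). Perforin (PRF1) and keratin 20 (KRT20) rose by 3.47 and 3.09 with 5-aza-dC, and their PJ-34 differences were −0.06 (−0.50 to 0.37) and 0.22 (−0.19 to 0.63). With TSA, caveolin (CAV1) rose by 1.25, CCDC51 by 1.11 and clusterin (CLU) by 1.38, while LEMD1, the interferon-induced IFITM1 and the polyamine enzyme SAT1 fell, with log2 changes of −2.20, −2.56 and −1.03. The PJ-34 differences of these 6 lay between −0.17 and 0.17. For ANXA10, NR2F1 and ARHGAP18, which fell with 5-aza-dC by 1.30, 0.95 and 0.67, they were −0.21, −0.13 and −0.11. Among the 203 probe sets called for 5-aza-dC, 2-fold was excluded for PJ-34 at 160 (78.8%), and among the 3528 called for TSA at 3389 (96.1%). Over all tested probe sets the share was 91%. These shares were not matched for brightness, on which exclusion depended.

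In RKO cells, for which the study gives differing doses of PJ-34, the values are set side by side only. Again 0 of the same 23661 probe sets passed (0%), 648 had an unadjusted p under 0.05, and 2-fold was excluded at 21211 (89.6%). These probe sets were chosen by their HCT116 signal, and some were under the floor in RKO, with mean RKO signals of 27.1 for SPARC and 23.1 for ANXA10. The floor shrinks differences there, so part of the RKO share is built in. PARP1 gave −0.10 (−0.30 to 0.11) in RKO, PARG −0.18 (−0.70 to 0.34), SAMM50 −0.03 (−0.33 to 0.28), CDKN1A 0.21 and ERN2 0.94 (0.02 to 1.87). In RKO, the PJ-34 array and the array with PJ-34 plus 5-aza-dC go against their labels at 5-aza-dC genes (CDKN2A, for 1, read 47.9 on the RKO control, 2180 with PJ-34, 1427 with 5-aza-dC and 142 with PJ-34/5-aza-dC). Both lie on the PJ-34 side of the RKO comparison, and the part of this in the RKO errors was not tested. The difference between the lines in the PJ-34 effect passed at 0 probe sets (0%), with a median half-width of 0.55. An effect of 2-fold was excluded in both lines at 19799 probe sets (83.7%), with the same limit from the floor in RKO.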

How the data were processed

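RNA of 16 samples was measured by the study on Affymetrix U133 Plus 2.0 arrays, 1 array per condition, of which the 8 HCT116 arrays were used and the 8 RKO arrays served for side-by-side values. The deposited signal intensity values of the series table were used. Per the labels' processing notes they came from the GCOS software (its version is not given in the sources used here). Their values show a scaling of each array by the authors to a common level, since the 2% trimmed mean was 1000.14 to 1000.16 on the HCT116 arrays. Groups were taken from the treatment labels. Scaling of this kind sets all arrays to 1 mean, so a shift of all transcripts together could not be seen, and the number of arrays limits the precision.

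A floor of 50 was put on the signal before the log2. Probe sets with at least 250 on at least 4 of the 8 arrays were fitted with terms for TSA, 5-aza-dC and PJ-34 by limma 3.58.1 (R 4.3.3), with variance moderation trended on mean signal, 4 residual degrees of freedom and Benjamini-Hochberg adjustment over all tested probe sets at 0.05. Sizes were excluded by a pair of one-sided moderated tests against bounds of 1.25, 1.5, 2, 3 and 4-fold. Per-array measures were compared by exact permutation over 70 splits (scipy 1.17.1). The code was tested on simulated data. Of the probe sets, 41097 carry 1 gene symbol in the platform annotation, 1801 several and 11777 none, and genes were named only from the first. A gene was read from its tested probe set with the highest mean.

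The members and gene lists were chosen with earlier results of these data known. Named genes were the 10 highest and 10 lowest by moderated t among those of 1 direction in all 4 pairs, the 5 highest and 5 lowest by size, all of the PARP family, up to 4 of smallest p from each other list, the genes the study names, up to 3 per direction for each other drug, and DNMT1 and HDAC1. Other named genes are members of these lists, and CYP1A1, UGT1A6, NTN1 and TMEM263 were picked by their values. The alternatives were floors of 20 and 100, a minimum of 100, no filter, quantile normalization, pairs as a block, untrended and robust moderation, all 16 arrays in 1 fit, and leaving out each array.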

Additional observations from a re-analysis of the deposited data

Results flagged for a closer look

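For some genes 1 of the 4 pairs lay far from the others, further than Dixon's limit for 4 values. This held for 8 of 164 sets of 4 values (4.88%), where chance alone flags about 1 in 20. CEACAM5, a colon epithelial adhesion molecule, had a log2 difference of −3.47 on 5-aza-dC and of −0.40, −0.65 and −0.85 in the other pairs. On 5-aza-dC, SOD2, a mitochondrial superoxide dismutase, stood at 0.83, DUSP4 at 0.69 and SPARC at 0.68, while their other pairs lay at or under 0.16. AHR was at 0.03 on 5-aza-dC and at 0.36, 0.37 and 0.36 elsewhere. ANXA10 was at 0.35 on 5-aza-dC and TSA, with its other pairs between −0.44 and −0.36, and the chaperone HSP90AB1 at −0.17 on TSA, with the others at 0.18, 0.18 and 0.14. The summed signal of blood cell markers was 3930 on the 5-aza-dC array, above the other arrays without PJ-34, of which the highest was 2214.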

How the results depend on the processing

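No probe set was called for PJ-34 under any of the 17 alternatives. Those that kept all 8 arrays left 3.11% to 4.64% of probe sets at an unadjusted p under 0.05 and a smallest adjusted p of 0.877. Leaving out 1 array gave 0 calls each time. Without the TSA array the smallest adjusted p was 0.161 and 3842 of 23238 probe sets (16.5%) were at an unadjusted p under 0.05. The cause was not tested. The number of probe sets with 2-fold excluded ran from 20047 to 21338 with 1 array left out, and their share of those tested from 86.5% to 92.3%. With no filter it was 29891 of 54675 (54.7%) and with a minimum of 100 it was 22725 of 35432 (64.1%), where more dim probe sets enter. The floor shrinks differences at such probe sets. Every array carries the replicate number 1, so the numbers pair no samples. With the 4 pairs that differ in PJ-34 alone as a block, 0 probe sets were called and 2-fold was excluded at 21625. Of 144 named genes 122 kept their sign wherever they were tested, among them all 20 chosen by moderated t, and 22 did not under some alternative. In 64 cases a named gene was not tested under an alternative. The 20 had been chosen for 1 direction in all 4 pairs, so their kept sign was largely set by that choice.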
